A study of Rattus norvegicus with 7 samples.

Results

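Genes of DNA replication and S phase were examined in meibomian glands of rats, lid glands whose cells burst to release the oil of tears, with and without ultraviolet B (UVB) irradiation of the lid. The 41 genes were listed by symbol, and 40 of them were found in the tables of 17246 genes; E2f1 was not analysed here. All 40 passed the filter on low counts, among 13709 genes tested. There were 4 control and 3 UVB libraries, all of wild-type female Sprague-Dawley rats aged 3 months. In the UVB group the shaved upper lid received 300 mJ/cm2 in 5 min per day on 5 days, and glands were dissected and frozen after the lid was removed. Controls are labelled as having no treatment; the labels do not say whether they were shaved or how long after the last exposure tissue was taken. Each column name holds a different number, but the labels do not say what it stands for or that each library is a separate animal, so p-values measure only the spread between these libraries, which may be technical. The libraries are named control a, b, c and d and UVB a, b and c with letters that pair nothing.

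Before S phase, the origin recognition complex (ORC), CDC6 and CDT1 load the MCM2 to MCM7 helicase ring onto DNA, a step called licensing. CDC45 and the GINS complex then turn the ring into an active helicase, polymerases copy both strands around the PCNA clamp, and ribonucleotide reductase and its partner enzymes supply deoxynucleotides. Many of these genes are transcribed under E2F factors, which the retinoblastoma protein holds back until cyclin-dependent kinases release them. In the meibomian gland, basal cells at the rim of each acinus divide and feed the centre, where cells fill with lipid and burst.

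The bases before the start of 8 members are shown, to set the short words that E2F factors are known to bind beside the measured changes. The E2F words, TTTCCCGC, TTTCGCGC, TTTGCCGC and TTTGGCGC, were searched on both strands in the 250 bases before each start in the RefSeq promoter table of rat assembly GRCr8. At least 1 of them was present for 11 of 33 members with a promoter there (33.3%), for 340 of 10628 tested genes with one (3.20%) and for 525 of all 27457 genes in the table (1.91%). The 11 were Mcm2, Mcm5, Mcm6, Mcm7, Gins1, Gins3, Pola1, Tyms, Uhrf1, Slbp and Dtl.

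Of the MCM helicase genes, which form 1 complex, 5 have an entry and are shown whole, since Mcm3 and Mcm5 were called higher and Mcm2, Mcm6 and Mcm7 were not. Sequences run 5′ to 3′ on the strand of the gene and end at the base before the start; capitals mark the E2F words.
Mcm2: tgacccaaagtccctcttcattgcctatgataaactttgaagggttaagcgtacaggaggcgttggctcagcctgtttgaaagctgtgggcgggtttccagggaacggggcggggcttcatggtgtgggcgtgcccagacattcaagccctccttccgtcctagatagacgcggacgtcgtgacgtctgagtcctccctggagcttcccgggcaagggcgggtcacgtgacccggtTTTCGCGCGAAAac
Mcm3: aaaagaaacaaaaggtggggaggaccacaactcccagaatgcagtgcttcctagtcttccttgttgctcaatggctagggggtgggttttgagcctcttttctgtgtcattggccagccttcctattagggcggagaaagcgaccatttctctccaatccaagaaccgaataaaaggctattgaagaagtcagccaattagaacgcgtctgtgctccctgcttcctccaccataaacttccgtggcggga
Mcm5: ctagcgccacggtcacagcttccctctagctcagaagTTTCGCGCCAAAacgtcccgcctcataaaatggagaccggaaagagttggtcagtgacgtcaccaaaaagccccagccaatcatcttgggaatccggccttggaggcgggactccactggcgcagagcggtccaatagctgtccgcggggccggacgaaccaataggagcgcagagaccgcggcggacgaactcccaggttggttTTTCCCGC
Mcm6: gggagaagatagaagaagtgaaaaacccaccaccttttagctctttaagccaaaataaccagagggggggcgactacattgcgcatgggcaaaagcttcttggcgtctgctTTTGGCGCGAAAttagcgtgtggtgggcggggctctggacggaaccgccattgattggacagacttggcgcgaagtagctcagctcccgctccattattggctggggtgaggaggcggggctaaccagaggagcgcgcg
Mcm7: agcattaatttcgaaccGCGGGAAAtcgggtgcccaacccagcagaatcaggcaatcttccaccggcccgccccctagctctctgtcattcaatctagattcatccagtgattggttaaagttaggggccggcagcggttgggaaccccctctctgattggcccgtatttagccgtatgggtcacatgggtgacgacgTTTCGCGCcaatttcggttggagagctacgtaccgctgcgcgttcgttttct

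They lie at chr4:122918095-122918344, minus strand (Mcm2), chr9:30733747-30733996, minus strand (Mcm3), chr19:13488563-13488812, plus strand (Mcm5), chr13:42404353-42404602, minus strand (Mcm6), chr12:22163179-22163428, minus strand (Mcm7) in GRCr8. In Mcm2 the word TTTCGCGC lay 14 to 7 bases before the start, and the same word on the opposite strand, overlapping it, lay 10 to 3 bases before. Mcm5 had overlapping words of both strands from 213 to 202 bases before the start and TTTCCCGC at 8 to 1. Mcm6 had an overlapping pair from 139 to 128 bases before, and Mcm7 had separate words at 233 to 226 and 52 to 45. None of these letters stood in the window of Mcm3. Mcm4 had no entry in the table, nor did Orc1, Cdc6, Gins4, Rrm2, E2f2 and Ccne2.

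The last 60 bases are given for 3 members of other roles, a helicase subunit gene, thymidylate synthase and a substrate receptor of a ubiquitin ligase, whose words lie close to the start.
Gins1: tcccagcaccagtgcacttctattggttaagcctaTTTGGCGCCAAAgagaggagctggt
Tyms: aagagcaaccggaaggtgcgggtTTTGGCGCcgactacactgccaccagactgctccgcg
Dtl: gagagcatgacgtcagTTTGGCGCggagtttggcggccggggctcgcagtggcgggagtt

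They lie at chr3:160184860-160184919, plus strand (Gins1), chr9:120776084-120776143, minus strand (Tyms), chr13:105685922-105685981, minus strand (Dtl). Their first words began 25, 37 and 44 bases before the start. Of the 7 members called higher after UVB that have a promoter in the table, 1 held an E2F word (Mcm5), against 10 of the 26 members not called. Rrm2 and Orc1, the called members with the largest log2 fold changes, have no promoter there and are missing from this comparison, which was not tested. The sequence CCAAT was present in 19 of the 33 members (57.6%) and in 36.3% of tested genes, and TTTGAA, the core of the CHR element of mitotic genes, in 3 of 33 (9.09%) and in 11.2%. Among 25 mitosis genes TTTGAA was present in 10 (40%) and an E2F word in 1. A match describes letters in a window and is not a binding site, and the RefSeq start need not be the one used in this gland.

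After UVB, 9 of the 40 replication genes rose and none fell by edgeR's quasi-likelihood test (Benjamini-Hochberg adjusted p under 0.05 over all genes tested). That is 22.5% of the members higher, where 6.30% of all tested genes were called higher and 6.74% lower. The 9 were the ribonucleotide reductase gene Rrm2, the origin recognition gene Orc1, the helicase genes Mcm5 and Mcm3, the cyclin gene Ccne1, the thymidine kinase gene Tk1, the chromatin assembly gene Chaf1a and the clamp loader genes Rfc4 and Rfc5. The log2 fold change was above 0 for 39 members, where 49.1% of tested genes were above 0, and its median was 0.28 (1.21-fold) against -0.01 for all genes tested. At an unadjusted p under 0.05 there were 16 of 40 members higher and 0 lower, against 1921 higher and 2129 lower of all 13709 genes tested. DESeq2 and limma-voom called 0 members lower as well.

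**Figure D1:**
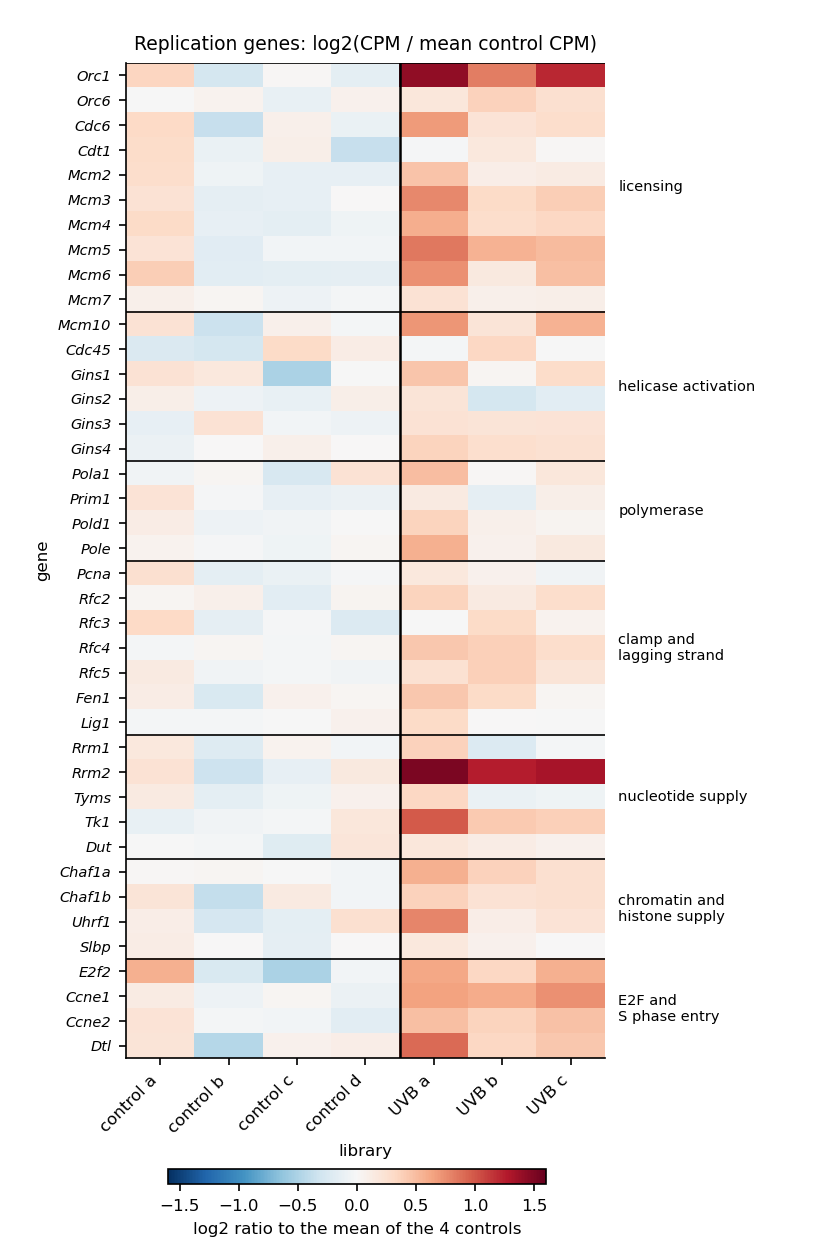
Each row is a replication gene and each column a library; colour gives log2 of CPM (counts scaled to a common library size) over the mean of the 4 controls, with genes grouped by role. Rrm2 and Orc1 are the darkest rows in all 3 UVB libraries, control a is the warmest control in most licensing rows, and UVB a is the warmest UVB column for most genes.

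Every UVB library lay above every control for 16 members, and for 12.8% of all tested genes; no member lay wholly below, against 13.8% of tested genes. Of the called members 5 were at least 1.5-fold higher (Rrm2, Orc1, Ccne1, Mcm5 and Tk1), against 3.11% of tested genes called higher by that much. Only Rrm2, Orc1, Mcm5 and Ccne1 kept their call under all 16 alternatives tried. The count of 9 depended on single libraries: it was 5 without UVB a, 4 without control b, 4 without control c and 5 without control d, when 4.09%, 4.11%, 3.10% and 3.72% of all genes were called higher, and it was 12 without control a, when 6.76% were.

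Libraries differed in how high the whole set stood. The median deviation of the 40 members from their control mean was 0.14 in control a on the log2 scale, and -0.08, -0.05 and -0.01 in controls b, c and d. It was 0.43 in UVB a, 0.22 in UVB b and 0.24 in UVB c, so the groups did not overlap. Control a was the highest control for 28 of the members, and UVB a the highest UVB library for 34. UVB a exceeded every control for 34 members, UVB c for 22 and UVB b for 18. The same counts were not made over all tested genes, so these have no share to be read against.

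Licensing genes had a median log2 fold change of 0.40 (10 of 10 above 0, 3 called). Orc1 (NCBI gene 313479) encodes the largest ORC subunit. Its level in CPM, counts scaled to a common library size, was 2.71, 1.77, 2.17 and 1.92 in controls a, b, c and d, and 5.74, 3.79 and 4.93 CPM in UVB a, b and c; later values keep this order. The groups were well apart, although the gene was the least abundant of the set per length in controls, with 38 to 63 counts in a control and 98 to 128 after UVB. Its log2 fold change was 1.16 (edgeR: SE 0.214, adjusted p = 0.0107), a 2.24-fold rise, and the call held in all alternatives (highest adjusted p 0.0341). On the log2(TPM + 1) scale, which understates changes of scarce genes, it was 0.76. The other licensing factors did not pass: Orc6, an ORC subunit, had a log2 fold change of 0.27 (edgeR: SE 0.149, adjusted p = 0.256) with groups that did not overlap, and Cdc6, the loading ATPase, one of 0.40 (edgeR: SE 0.21, adjusted p = 0.233).

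Cdt1, the loader that geminin inhibits, had the largest p of the licensing genes. It stood at 42.4, 32.3, 37.2 and 27 CPM in the controls and 34.4, 39 and 35.1 CPM after UVB. The UVB values fell inside the range of the controls, and the log2 fold change was 0.06 (edgeR: SE 0.138, adjusted p = 0.815), turning to -0.04 without control d.

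Of the 6 genes of the helicase ring 2 were called, with a median log2 fold change of 0.44. Mcm5 (NCBI gene 291885) measured 25.8, 19.5, 21.5 and 21.5 CPM in the controls and 39.5, 32.4 and 31.4 CPM after UVB. All UVB libraries exceeded all controls, and the log2 fold change was 0.64 (edgeR: SE 0.113, adjusted p = 0.00924). Mcm3 (NCBI gene 316273) measured 24.6, 19, 19.1 and 20.9 CPM in the controls and 35.7, 25.9 and 27.5 CPM after UVB, which did not overlap. Its log2 fold change came to 0.51 (edgeR: SE 0.132, adjusted p = 0.0351). Leaving out UVB a, UVB c, control b, control c or control d ended the call, as did the fits on TPM (adjusted p up to 0.0949). Mcm6 (0.47), Mcm4 (0.40), Mcm2 (0.24) and Mcm7 (0.14) were not called, at edgeR adjusted p-values of 0.114, 0.0615, 0.226 and 0.209. The first 3 of these passed once control a was left out, at log2 fold changes of 0.63, 0.52 and 0.35 (edgeR adjusted p = 0.0203, 0.0104 and 0.0454), and Mcm7 did not. DESeq2 called Mcm4 (adjusted p = 0.0224) and Mcm6 (0.047).

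Levels of the ring subunits can be compared in TPM, transcript abundance corrected for length. In controls Mcm7 was the highest at 33.8 ± 0.962 TPM (SD, n = 4), followed by Mcm2 (19.9 ± 2.76), Mcm4 (17.9 ± 2.66) and Mcm6 (14.4 ± 2.85), whose spreads overlapped. Mcm3 and Mcm5 were lowest, both at 11.9 TPM (SD 1.38 and 1.37). After UVB the order of the first 4 was 37.2 ± 2.92 for Mcm7, 23.9 ± 3.11 for Mcm4, 23.7 ± 3.63 for Mcm2 and 20.1 ± 4.24 for Mcm6 (SD, n = 3). Mcm5 then stood at 18.6 ± 2.65 TPM and Mcm3 at 17 ± 3.3. The ratio of Mcm5 to Mcm2 in TPM was 0.571, 0.549, 0.635 and 0.636 in the controls and 0.776, 0.808 and 0.771 after UVB, so every UVB library was above every control. That of Mcm3 to Mcm2 was 0.599 ± 0.0373 (SD, n = 4) and 0.714 ± 0.0305 (SD, n = 3), also without overlap. That of Mcm7 to Mcm2 overlapped, at 1.72 ± 0.188 in controls and 1.58 ± 0.11 after UVB. Outside the ring, Cdt1 to Cdc6 overlapped too (15.1 ± 2.17 and 12 ± 2.58), and Ccne1 to Ccne2 did not (2.62 ± 0.157 and 2.98 ± 0.149). These ratios were chosen after the values were seen and were not tested. Counts of Mcm4 were not whole in any library and those of Mcm7 were not whole in 6 of 7, so these values are less certain.

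**Figure D2:**
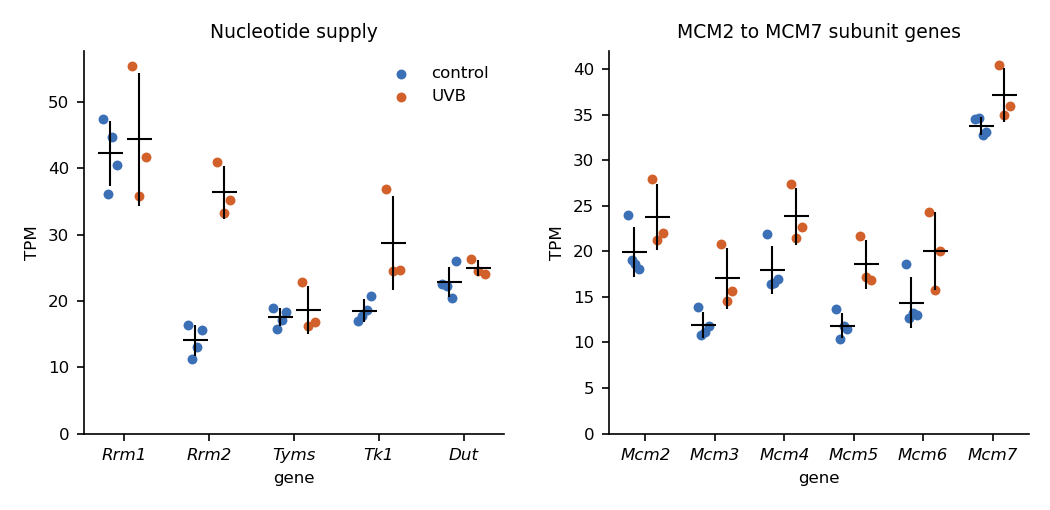
TPM of the nucleotide supply genes (left) and the MCM2 to MCM7 subunit genes (right); points are libraries, horizontal marks group means, and vertical lines 1 SD (4 control and 3 UVB libraries). Mean Rrm2 moves from 14.1 to 36.5 TPM while Rrm1 stays between 35.9 and 55.5 TPM in UVB and 36.2 and 47.5 in controls. Mcm3 and Mcm5 have the lowest group means of the subunit genes, although Mcm6 (15.8 TPM) is below Mcm5 (17.2 TPM) in UVB b.

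Genes that activate the helicase had a median log2 fold change of 0.25, with 0 of 6 called by edgeR. At an unadjusted p under 0.05, 2 were higher and 0 lower, against 1921 and 2129 of all 13709 genes tested. Gins4, a GINS subunit gene, measured 11.3, 12.1, 12.8 and 12.1 CPM in the controls and 15.5, 14.6 and 14.3 CPM after UVB. The groups did not overlap, the log2 fold change was 0.29 (edgeR: SE 0.0919, adjusted p = 0.065), and DESeq2 called it (adjusted p = 0.0458). Mcm10, a scaffold that links helicase and polymerase alpha, measured 6.16, 4.15, 5.55 and 5.13 CPM in controls and 8.58, 6.08 and 7.74 CPM after UVB. Only UVB b came below the highest control, and the log2 fold change was 0.50 (edgeR: SE 0.176, adjusted p = 0.09).

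The other members of this role differed less. Gins2 was the only member below 0: it had 8.36, 7.37, 7.21 and 8.33 CPM in controls and 9.05, 6.46 and 6.93 CPM after UVB, with UVB libraries on both sides of the controls. Its log2 fold change was -0.07 (edgeR: SE 0.148, adjusted p = 0.807) and 0.03 without UVB b. Gins1 (0.27, SE 0.204), Gins3 (0.22, SE 0.138) and the helicase cofactor gene Cdc45 (0.10, SE 0.173) had edgeR adjusted p-values of 0.412, 0.319 and 0.731. Counts of Gins2 and Gins4 were not whole in any library, and Gins2 overlaps Gse1 in GRCr8, so their values are uncertain.

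Polymerase and primase genes had a median log2 fold change of 0.20, or 0.08 without UVB a, with 0 of 4 called by edgeR, DESeq2 or limma-voom, or at an unadjusted p under 0.05. Pole, the catalytic subunit of the leading strand polymerase, measured 12.9, 12.3, 11.8 and 12.7 CPM in controls and 18.5, 13 and 13.8 CPM after UVB. UVB b and c lay just above the controls and UVB a well above them, with a log2 fold change of 0.28 (edgeR: SE 0.13, adjusted p = 0.183), or 0.11 without UVB a. Pola1, of the priming polymerase, measured 11.3, 12, 9.87 and 13.8 CPM in controls and 16.6, 11.9 and 13.3 CPM after UVB, which overlapped (0.24, edgeR: SE 0.15, adjusted p = 0.31). Pold1, the lagging strand polymerase, had a log2 fold change of 0.16 (edgeR: SE 0.108, adjusted p = 0.345).

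Prim1, the primase subunit that makes the RNA primer, was the member with the largest p. It measured 59.7, 50.9, 47.1 and 48 CPM in controls and 56.8, 46.6 and 54.7 CPM after UVB, which overlapped (log2 fold change 0.04, edgeR: SE 0.1, adjusted p = 0.846). Per length it was among the most abundant of the set at 38.2 ± 4.97 TPM (SD, n = 4) in controls, while Pole (2.81 ± 0.0678) and Pola1 (3.58 ± 0.472) were among the scarcest.

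Clamp, clamp loader and lagging strand genes had a median log2 fold change of 0.26 (7 of 7 above 0, 2 called). The called genes encode subunits of replication factor C, which opens the PCNA ring. Rfc4 (NCBI gene 288003) measured 13.6, 14.1, 13.5 and 14.2 CPM in controls and 18.7, 18 and 16.9 CPM after UVB. Neither group spread widely, and they were apart, at a log2 fold change of 0.36 (edgeR: SE 0.0837, adjusted p = 0.0234). Rfc5 (NCBI gene 304528) measured 27.2, 23.8, 24.1 and 23.8 CPM in controls and 29.4, 32.3 and 28.5 CPM after UVB. Control a was the control nearest to the UVB libraries, and the log2 fold change was 0.28 (edgeR: SE 0.0807, adjusted p = 0.0475).

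Both calls were fragile. That of Rfc4 was lost without UVB a, UVB b, control b, control c or control d (edgeR adjusted p up to 0.0681), and that of Rfc5 in each fit without 1 library except control a (up to 0.142), as well as without a filter on low counts and under log2(TPM + 1) without a filter. Rfc2 (0.27, edgeR: SE 0.101, adjusted p = 0.113), with groups that did not overlap, and Rfc3 (0.13, edgeR: SE 0.141, adjusted p = 0.587) did not pass.

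Pcna itself, the sliding clamp and a common marker of dividing cells, did not differ beyond its spread. It measured 95.8, 71.9, 74.5 and 79 CPM in controls and 90.3, 84 and 77.1 CPM after UVB, a log2 fold change of 0.06 (edgeR: SE 0.103, adjusted p = 0.735). The UVB libraries lay within the range of the controls, control a being the highest library of all. It was the most abundant member per length in both groups, at 96.9 ± 12.1 TPM (SD, n = 4) and, after UVB, 102 ± 8.97 TPM (SD, n = 3). Fen1, the flap nuclease (0.26, edgeR: SE 0.12, adjusted p = 0.174), and Lig1, the ligase that seals Okazaki fragments (0.11, edgeR: SE 0.0854, adjusted p = 0.441), were not called, and Lig1 was at -0.00016 without UVB a.

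Nucleotide supply genes had the lowest median of the 7 roles, 0.12, and included the member with the largest rise (5 of 5 above 0, 2 called). Without UVB a the polymerase genes were lowest, at 0.08 against 0.10 for nucleotide supply. Rrm2 (NCBI gene 362720), the regulatory subunit of ribonucleotide reductase whose level limits the enzyme in S phase, measured 25.3, 17.2, 19.7 and 24 CPM in controls and 61.2, 51.5 and 53.7 CPM after UVB. The groups were far apart, and the log2 fold change was 1.36 (edgeR: SE 0.129, adjusted p = 0.00107), a 2.57-fold rise. It ran from 1.27 to 1.45 over the alternatives. Its counts were not whole in any library and it overlaps Cys1 in GRCr8, so part of its level is uncertain.

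Rrm1, the catalytic subunit that pairs with it, measured 85.9, 65.8, 79.2 and 73.8 CPM in controls and 98.4, 65.7 and 74.4 CPM after UVB. UVB b was as low as the lowest control, and the log2 fold change was 0.06 (edgeR: SE 0.141, adjusted p = 0.816), or -0.12 without UVB a and -0.0048 without control b. Per length, the ratio of Rrm2 to Rrm1 was 0.344, 0.31, 0.293 and 0.385 in controls and 0.736, 0.926 and 0.845 after UVB, or 0.333 ± 0.0406 and 0.836 ± 0.0956 on average (SD, n = 4 and 3). Rrm2 thus went from place 17 to place 5 in the order of members by TPM. The ratio was chosen after the values were seen and was not tested.

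Thymidine kinase and thymidylate synthase, the salvage and the synthesis route to thymidylate, also had unlike values, with no test between them. Tk1 (NCBI gene 24834) measured 20.4, 21.2, 21.7 and 25.1 CPM in controls and 43.6, 29.5 and 28.7 CPM after UVB, with UVB a far above UVB b and c. The groups did not overlap and the log2 fold change was 0.61 (edgeR: SE 0.149, adjusted p = 0.0297). The call was lost without control a, control b or control c (adjusted p up to 0.0774 over all alternatives) and under log2(TPM + 1) without a filter; its log2 fold change was 0.40 without UVB a. Its counts were not whole in any library. Tyms had a log2 fold change of 0.06 (edgeR: SE 0.117, adjusted p = 0.762) and -0.08 without UVB a, and Dut, which removes dUTP, one of 0.12 (edgeR: SE 0.0965, adjusted p = 0.429). The ratio of Tk1 to Tyms in TPM was 1.06 ± 0.116 and 1.53 ± 0.0747 (SD, 4 control and 3 UVB libraries), also not tested.

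Genes of chromatin and histone supply had a median log2 fold change of 0.34 (4 of 4 above 0, 1 called). Chaf1a (NCBI gene 363333), the large subunit of chromatin assembly factor 1, measured 15.1, 15.2, 14.8 and 14.4 CPM in controls and 22, 19.2 and 17.8 CPM after UVB. The controls were nearly alike and all UVB libraries exceeded them, at a log2 fold change of 0.40 (edgeR: SE 0.0942, adjusted p = 0.0252). This call was lost without UVB a, UVB b, control b, control c or control d (edgeR adjusted p up to 0.0676) and under log2(TPM + 1) without a filter. Uhrf1, which brings maintenance methylation to new DNA, measured 20.4, 15.7, 17 and 22.6 CPM in controls and 32.5, 20.3 and 22 CPM after UVB. Only UVB a exceeded every control, so the groups overlapped (0.39, edgeR: SE 0.185, adjusted p = 0.196).

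The smaller subunit gene Chaf1b had a log2 fold change of 0.28 (edgeR: SE 0.166, adjusted p = 0.288) with groups narrowly apart. Slbp, which binds the stem loop of histone mRNA, measured 25.9, 24.1, 21.7 and 24 CPM in controls and 26.9, 25.2 and 24.1 CPM after UVB. These ranges overlapped, at a log2 fold change of 0.09 (edgeR: SE 0.083, adjusted p = 0.518).

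The E2F and S phase entry genes had the highest median of the roles, 0.54 over 4 genes (all above 0, 1 called). At an unadjusted p under 0.05, 3 were higher and 0 lower, against 1921 and 2129 of all 13709 genes tested. Ccne1 (NCBI gene 25729) encodes cyclin E1, which drives CDK2 at the start of S phase. It measured 6.67, 5.79, 6.24 and 5.73 CPM in controls and 9.53, 9.21 and 10.1 CPM after UVB. Libraries of a group were close and the groups were apart, with a log2 fold change of 0.66 (edgeR: SE 0.117, adjusted p = 0.00974; up to 0.033 over its alternatives). The other cyclin E gene, Ccne2, measured 4.34, 3.64, 3.62 and 3.33 CPM in controls and 5.21, 4.76 and 5.16 CPM after UVB. Here too no libraries overlapped, but the log2 fold change of 0.43 was not called (edgeR: SE 0.152, adjusted p = 0.092), and the counts were not whole in any library.

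E2f2, one of the activating E2F genes, had 17, 9.71, 8.11 and 11.1 CPM in controls and 17.7, 14.4 and 17 CPM after UVB. Control a was as high as the UVB libraries and the other controls were below all of them. The log2 fold change was 0.52 (edgeR: SE 0.228, adjusted p = 0.172), and 0.77 with a call once control a was left out (edgeR adjusted p = 0.0134). Dtl, the CRL4 receptor that marks CDT1 for destruction in S phase, had a log2 fold change of 0.57 (edgeR: SE 0.202, adjusted p = 0.0935) with groups that did not overlap. Fen1, Lig1, Uhrf1 and Ccne2 overlap Tmem258, Zswim9, Arrdc5 and Ints8 in GRCr8, and without a stated use of strand their reads may not be separable. Pseudogenes overlap Mcm3, Gins1, Pola1 and Pole there, and genes of noncoding RNA overlap Mcm6, Mcm7, Pola1 and E2f2.

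**Figure D3:**
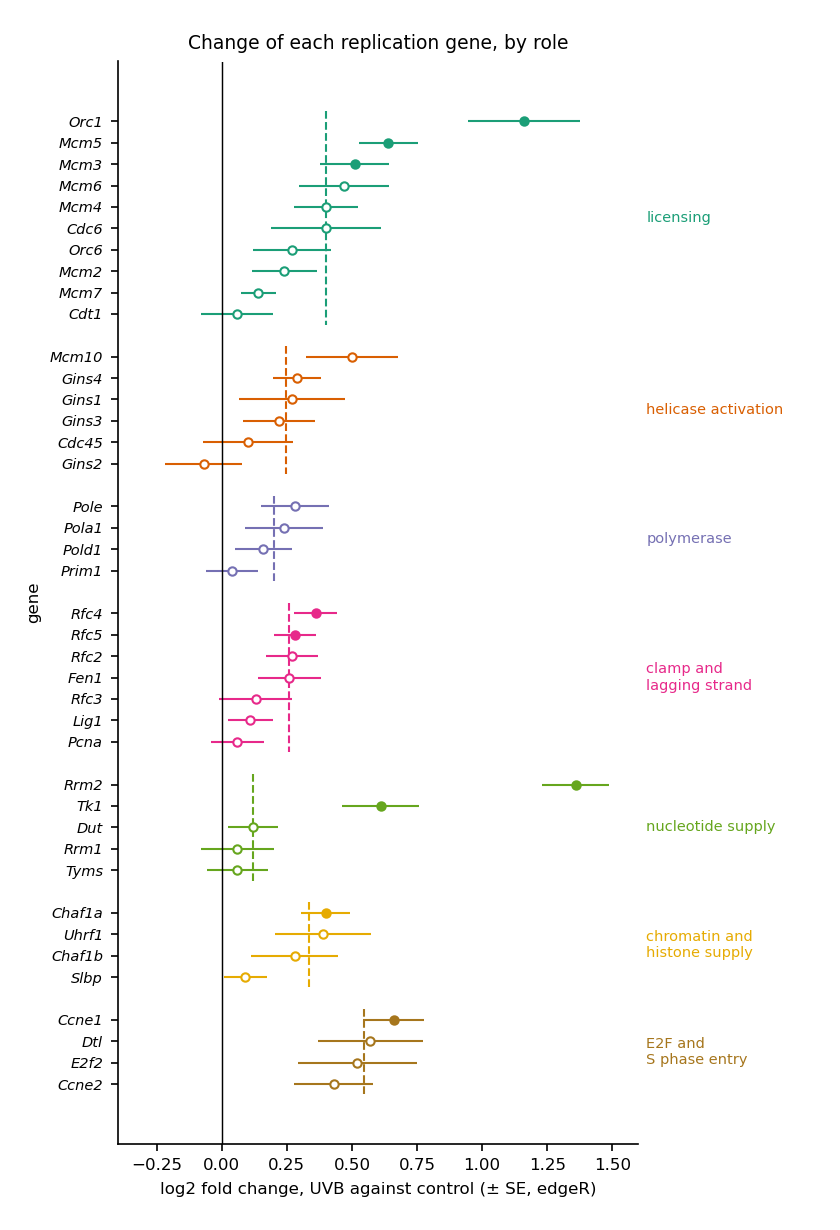
Log2 fold change of each member, UVB against control, with bars of 1 SE from edgeR; filled points passed the adjusted threshold and dashed lines are role medians. Rrm2 and Orc1 lie at 1.36 and 1.16, the medians run from 0.12 for nucleotide supply to 0.54 for E2F and S phase entry, and Gins2 is the only point below 0.

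Side by side, the role medians ran from 0.54 (E2F and S phase entry) through 0.40 (licensing), 0.34 (chromatin), 0.26 (clamp and lagging strand), 0.25 (helicase activation) and 0.20 (polymerase) to 0.12 (nucleotide supply). These are medians of 4 to 10 genes with no test between them, and the last 2 changed places without UVB a (0.08 for polymerase and 0.10 for nucleotide supply). In the UVB libraries a, b and c the median deviation from the control mean was 0.63, 0.34 and 0.52 for the E2F role and 0.63, 0.25 and 0.31 for licensing, against 0.43, 0.04 and 0.12 for the polymerases. Control a stood at 0.29 for licensing, above UVB b, and at 0.21 for the E2F role. Medians of the groups overlapped for licensing, polymerase, clamp and nucleotide supply genes, and did not for the other 3 roles.

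**Figure D4:**
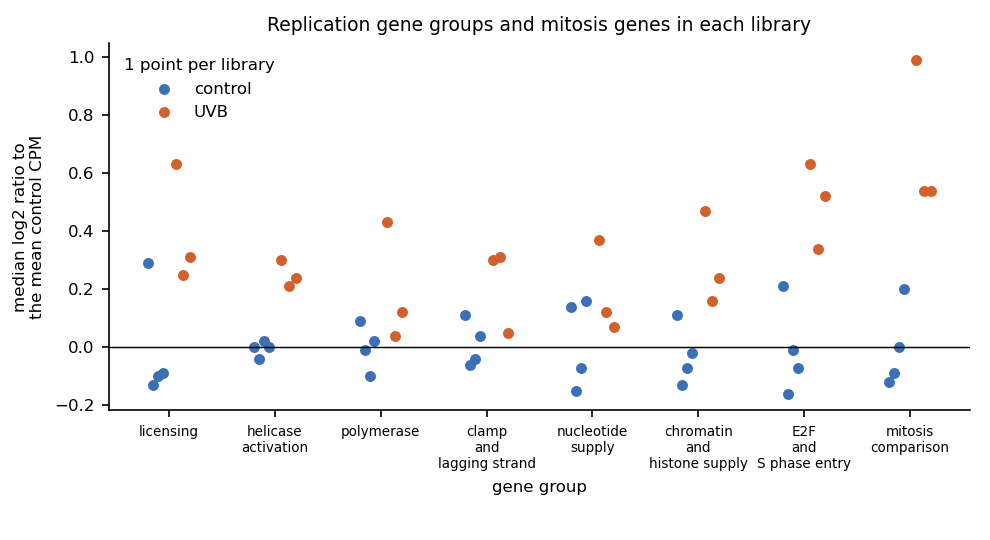
Each point is 1 library, at the median over the genes of a role of log2 CPM relative to the control mean; controls are blue and UVB libraries orange. The mitosis genes reach 0.54 to 0.99 in UVB libraries, and the licensing point of control a (0.29) lies among the UVB points. The helicase activation points separate although none of those genes was called by edgeR.

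Further genes of the same pathway were read from lists, beside the 6.30% of all tested genes called higher. Of 36 further machinery genes tested, 3 (8.33%) were called higher by edgeR, near the share of all genes, and 0 lower. At an unadjusted p under 0.05 there were 9 higher and 3 lower, against 1921 and 2129 of all 13709 genes tested. The median of these machinery genes was 0.15. Dbf4, the activator of the CDC7 kinase that fires origins, rose by 0.84 on the log2 scale, from 5.73 ± 0.728 CPM (SD, n = 4) in controls to 10.3 ± 0.0885 (SD, n = 3) (edgeR: SE 0.131, adjusted p = 0.00614). Clspn, which encodes the checkpoint mediator claspin, rose by 0.92 (edgeR: SE 0.184, adjusted p = 0.0141). The remaining call, Ticrr (0.62), is named after its value was seen and was lost in 7 of 16 alternatives, among them those without UVB a, UVB b, control b or control c. Of 21 further nucleotide genes 4 (19%) were higher and 1 lower, with a median of 0.10. Impdh1, the guanine nucleotide enzyme, rose by 0.90 (edgeR: SE 0.107, adjusted p = 0.00278) and the one-carbon enzyme gene Shmt2 by 0.56 (edgeR: SE 0.0872, adjusted p = 0.00637). Samhd1, which breaks down deoxynucleotides, stood at 43.9 ± 4.66 CPM in controls (SD, n = 4) and 27.4 ± 3.06 after UVB (SD, n = 3), and its log2 fold change was -0.68 (edgeR: SE 0.105, adjusted p = 0.00605). The calls of Dbf4, Clspn, Impdh1, Shmt2 and Samhd1 held in all 16 alternatives. Nme1 (0.32) and Cad (0.24), named after their values were seen, complete the 4; Cad was lost without UVB b, UVB c, control b, control c or control d, and Nme1 in the fits on TPM.

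Chromatin duplication genes beyond the members gave 2 calls higher of 9 (22.2%) and 0 lower by edgeR, with a median of 0.06. At an unadjusted p under 0.05 there were 3 and 0, against 1921 and 2129 of all 13709 genes tested. The histone chaperone gene Asf1b rose by 0.98 on the log2 scale (edgeR: SE 0.17, adjusted p = 0.00871), and Nasp by 0.26 (edgeR: SE 0.0677, adjusted p = 0.0337), the latter lost in each fit without 1 library except control a (adjusted p up to 0.0941). Among 25 regulators of the RB and E2F pathway 6 (24%) were higher and 1 lower, with a median of 0.11. Cdkn1c, an inhibitor of cyclin-dependent kinases, rose by 1.17 (edgeR: SE 0.143, adjusted p = 0.003) and Tfdp1, the dimer partner of E2F, by 0.44 (edgeR: SE 0.0588, adjusted p = 0.00377). Cdkn1b, another inhibitor, was lower at -0.32 (edgeR: SE 0.0738, adjusted p = 0.0249), a call lost without UVB b, UVB c or control d (adjusted p up to 0.078). The other 4 called higher, named after their values were seen, were E2f8 (0.90), Ccna2 (0.77), Ccnd1 (0.37) and Ccnd3 (0.28). The call of Ccnd1 was lost without UVB a, UVB c, control b, control c or control d, and that of Ccnd3 without control c.

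Genes of mitosis, the phase that follows replication, are given for comparison. Of 29 tested, 23 (79.3%) were called higher and 0 lower by edgeR, against 6.30% and 6.74% of all genes tested. At an unadjusted p under 0.05 the counts were 28 and 0, against 1921 and 2129 of all 13709 genes tested. The median log2 fold change of the list was 0.74 against 0.28 for the members. Plk1, a kinase of mitotic entry, and Cenpe, a kinetochore motor, each rose by 1.06 (SE 0.101 and 0.103, edgeR adjusted p = 0.00107 for both). Every UVB library was above every control for 26 of the 29, against 12.8% of all tested genes. The median deviation was 0.99, 0.54 and 0.54 in UVB a, b and c, where the members had 0.43, 0.22 and 0.24, so the mitosis list was above the members in each UVB library. In the controls it was -0.12, -0.09, 0 and 0.20 in controls a, b, c and d, so control a, the highest control of the replication genes, was the lowest of the mitosis list. Both lists were chosen with earlier results of these data known, and the difference between them was not tested.

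**Figure D5:**
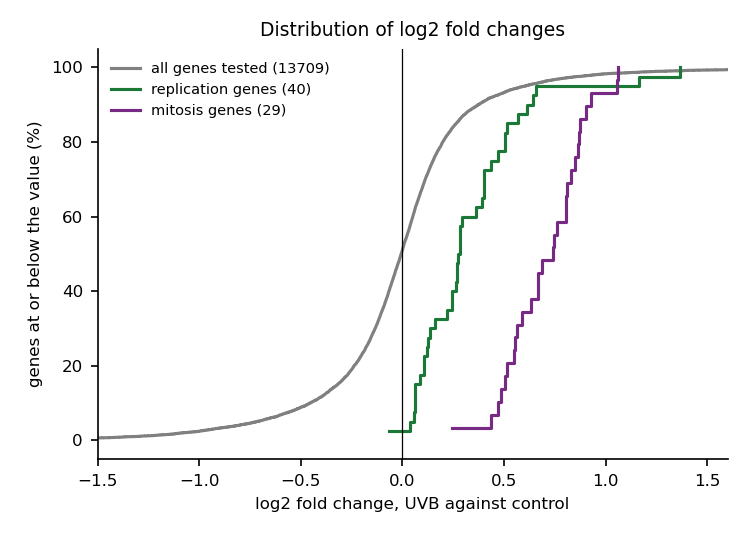
Cumulative share of genes (percent) against log2 fold change for all 13709 genes tested, the 40 replication genes and the 29 mitosis genes. The medians fall at -0.01, 0.28 and 0.74.

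Markers of cell types in the gland moved too, and in bulk tissue more cells of a type and more RNA per cell cannot be told apart. The counts of markers called stand beside 6.30% of all tested genes called higher and 6.74% lower. The 8 meibocyte markers found summed to 93313 to 115699 CPM in controls and 88128 to 108654 CPM after UVB, with 2 of 8 lower. Basal epithelial markers summed to 9824 to 12272 CPM in controls and 12320 to 13195 CPM after UVB, with 3 of 7 higher, 1 lower and a median log2 fold change of -0.02. Macrophage markers had 4 of 9 higher (79.7 to 142 CPM against 121 to 223 CPM), endothelial markers 3 of 5 (99.2 to 122 against 141 to 167 CPM), fibroblast markers 3 of 5 (2418 to 3756 against 2456 to 4094 CPM) and neutrophil markers 2 of 3 tested (251 to 274 against 293 to 371 CPM). T cell markers were scarce, with 2 of 6 tested higher and a median log2 fold change of -0.12 (4.95 to 6.5 against 5.65 to 8.71 CPM), and B cell markers were at 0.379 to 1.26 CPM in sum in controls and 0.901 to 0.963 after UVB. Hair follicle matrix markers had 0 of 8 higher and 5 lower (619 to 936 against 273 to 712 CPM). Suprabasal epidermis markers had 0 of 6 higher and 1 lower (3920 to 4934 against 4258 to 6311 CPM), and skeletal muscle markers 0 of 5 in either direction by edgeR (2199 to 2956 against 1554 to 2679 CPM). None of the markers found was at 0 in every library. The part of these cell types in the rise of replication genes was not tested.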

How the data were processed

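The deposited values are of 2 kinds: expected counts (estimated counts per gene), not normalised, of which 12.5% were not whole, and TPM computed by the authors. FastQC, Trimmomatic, DRAGEN, Picard and the build rn7 are named in the submitters' processing notes, without versions or roles; the counting program, annotation and use of strand are not given in the sources used here. Unquoted commas in gene names shift cells, so rows were parsed backwards from their last cell, and 5 rows per table without 7 values were dropped. The ratio of count to TPM was off by more than 1.5 times for 0 of the 40 members. Library totals ran from 20680237 to 28784941 counts, and each member had at least 38 counts in every library.

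After rounding, the quasi-likelihood test of edgeR 4.0.16 was run in R 4.3.3 (robust, TMM factors, filterByExpr), with Benjamini-Hochberg adjustment over all 13709 genes tested and a threshold of 0.05. The test was planned for counts and kept for rounded expected counts. CPM are TMM-normalised. SE is the absolute log2 fold change over the square root of F. The fits were tested on simulated data. Other fits used limma-voom (limma 3.58.1), DESeq2 1.42.0, DESeq2 size factors, library size alone, no count filter, a mean count of 50, limma on log2(TPM + 1) or log2(TPM + 0.1) where TPM averaged 1 or more, the former also unfiltered, and 1 library less. Columns name the group but no replicate number. Members and lists were chosen with earlier results of these data known. All members are named; values per library are given for the 2 with the smallest and the 1 with the largest p in each role (and for Mcm3, added after its value was seen), and from each pathway list the 2 smallest p-values among the calls in each direction. Of the members, 9 had counts that were not whole in some library. Promoters are those of RefSeq in GRCr8, matched by gene ID for 33 members.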

Additional observations from a re-analysis of the deposited data

Results flagged for a closer look

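Among 48 values compared within the 4 controls (40 members, 7 roles and the whole set), 4 had a single control standing apart; about 1 in 20, or 2.4, would by chance. All 4 concerned control a. Mcm6 measured 22.4 to 22.9 CPM in controls b, c and d and 33.1 in control a, whose gap was 0.949 of the whole range; without control a its log2 fold change was 0.63 (edgeR adjusted p = 0.0203). Mcm2 measured 47.8 CPM against 35.8 to 37.5 CPM, a gap of 0.861, and had 0.35 without control a (edgeR adjusted p = 0.0454). Rfc5 measured 27.2 CPM against 23.8 to 24.1 CPM, a gap of 0.909, and had 0.33 (edgeR adjusted p = 0.0267). The median deviation of the licensing genes was 0.29 in control a against -0.13 to -0.09 in the others, a gap of 0.896. Genes of the same libraries are not independent of each other, and groups of 3 were not examined in this way.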

How the results depend on the processing

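No paired analysis was possible because the column names hold no replicate number from the titles, and no label ties such numbers to a shared litter, batch or day. No alternative called a member lower. Of the 9 alternatives that kept all libraries, 8 gave 8 to 12 members higher, when 5.07% to 8.89% of all genes were called higher. Under log2(TPM + 1) without a filter 5 were higher, when 3.88% of all genes were. Members at least 1.5-fold higher numbered 3 under log2(TPM + 1) with or without the filter, and the share of all genes higher by that much was not counted there. Rfc5, Tk1 and Chaf1a were called with that filter and not without it, at the same log2 fold changes (0.29, 0.58 and 0.36). Their limma adjusted p-values were 0.0487, 0.0394 and 0.041 with it and 0.0646, 0.0552 and 0.0517 without it. A pseudocount of 1 lowers fold changes of scarce genes by construction. The cause of the lower counts was not tested. Across the 7 fits that each left out 1 library, 4 to 12 members were higher, when 3.10% to 6.76% of all genes were. In these fits 3 to 7 members were higher by at least 1.5-fold. The share of all genes higher by that much was counted only in the main fit (3.11%), so this range has none beside it. Of the members, 16 to 25 had every UVB library above every control. A library less makes this easier for every gene: without control a it was 25 members and 18.4% of all tested genes, against 16 and 12.8% with all libraries. The median of the members ran from 0.22 to 0.32. By role it ran from 0.31 to 0.52 (licensing), 0.20 to 0.30 (helicase activation), 0.08 to 0.28 (polymerase), 0.19 to 0.28 (clamp), 0.08 to 0.20 (nucleotide supply), 0.20 to 0.38 (chromatin) and 0.43 to 0.67 (E2F), and that of the mitosis genes from 0.62 to 0.79. The sign changed in 9 values, none of them called: without UVB a for Prim1 (-0.02), Lig1 (-0.00016), Rrm1 (-0.12) and Tyms (-0.08), without UVB b for Cdc45 (-0.02) and Gins2 (0.03), without control b for Rrm1 (-0.0048), without control c for Prim1 (-0.01) and without control d for Cdt1 (-0.04). At the other end of these fits, the log2 fold change was 0.12 (Prim1), 0.16 (Lig1), 0.18 (Rrm1), 0.15 (Tyms), 0.23 (Cdc45), -0.22 (Gins2) and 0.17 (Cdt1). Counts were lowest for Orc1, with 38 in control b.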
